A study of Homo sapiens with 4 samples.

Results

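Aminoacyl-tRNA synthetases join each amino acid to its tRNA, the step at which the genetic code is read into protein. Human cells use a cytosolic set, of which 8 enzymes sit together in the multisynthetase complex, and a separate set of nuclear-encoded enzymes that act in mitochondria; GARS and KARS serve both compartments. Transcription of many cytosolic synthetase genes is known to be raised by ATF4, the factor made when amino acids run short, and WARS is known to respond to interferon. The genes described here were the rows of an expression table whose symbol matched 1 of 36 fixed names, 20 cytosolic and 16 mitochondrial (symbols ending in 2), out of 63651 rows and 56620 symbols. All 36 were found. VARS and VARS2 had 9 further rows on alternate haplotypes of the HLA region, each listed at 0 in both conditions, and the row with the highest mean was used.

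The RNA came from BJ-5ta cells, human foreskin fibroblasts immortalised with telomerase, in a clonal derivative with a doxycycline-inducible FOXA2 gene. FOXA2 is a forkhead factor of endoderm and liver. The 2 induced samples received 0.5 µg/ml doxycycline, and the 2 uninduced samples had none. Both were grown with hygromycin, puromycin and 5 ng/ml basic fibroblast growth factor. An overnight block in G1 with 200 µM mimosine is also described, but the labels do not say for which cultures, nor how long induction lasted; the heading of the induced column carries the mark 4D, which they do not explain. Doxycycline exposure and FOXA2 cannot be told apart, since no line without the transgene was used here. The table holds 1 FPKM value (fragments scaled to transcript length and to library size) for each condition, with a deposited confidence interval of unstated level, so there is no replicate check and no p-value. A gene is called higher or lower here only if its 2 intervals do not overlap. Without counts, depth is unknown, and an overlap does not show that a gene stayed the same. FOXA2 was at 104 FPKM induced and 4.82 FPKM uninduced. All 8 fibroblast markers were detected, at 47.3 to 905 FPKM induced and 58.1 to 2098 FPKM uninduced. The 4 epithelial, 4 immune and 3 endothelial markers reached at most 1.30 FPKM.

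Windows around annotated transcription starts (250 bases before to 50 after, RefSeq, GRCh38.p14) were searched for 6 short elements. One was the C/EBP-ATF response element, the kind of site that ATF4 is known to bind, searched on both strands as TGATGNAAN and called CARE below. These letters were found for 7 of the 16 cytosolic synthetases with a window. At least 1 window of the gene held them for 4.45% of all 27305 genes in that table, and for 1 of 14 mitochondrial synthetases, YARS2. The stretches of 30 bases around each match are printed on the strand of the gene, with the match in capitals. The search fixed every letter of a match except N, which is any base, so likeness at the fixed letters was set in advance.
AARS, chr16:70289675-70289704 (-): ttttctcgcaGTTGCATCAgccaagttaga
CARS, chr11:3057407-3057436 (-): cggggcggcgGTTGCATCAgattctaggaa
IARS, chr9:92293692-92293721 (-): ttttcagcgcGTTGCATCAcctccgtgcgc
MARS, chr12:57488053-57488082 (+): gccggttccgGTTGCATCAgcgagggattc
NARS, chr18:57621803-57621832 (-): ctacgctctcTGATGCAACgccggaatcgc
TARS, chr5:33440956-33440985 (+): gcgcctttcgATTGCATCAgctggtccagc
GARS, chr7:30594834-30594863 (+): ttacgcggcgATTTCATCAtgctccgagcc
YARS2, chr12:32756075-32756104 (-): tccacactgcTGATGGAAAaattaagttta

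AARS, CARS, IARS and MARS carried the same letters, and NARS carried their reverse complement. The match in AARS began 188 bases before the start. In CARS, IARS, MARS and GARS it began 3, 14, 5 and 34 bases before the start, and in TARS and NARS at bases 2 and 15 of the transcript. The AARS site is shown within the longer stretch, chr16:70289544-70289756 (-), that lies ahead of the first exon in the GENCODE annotation.
AARS upstream: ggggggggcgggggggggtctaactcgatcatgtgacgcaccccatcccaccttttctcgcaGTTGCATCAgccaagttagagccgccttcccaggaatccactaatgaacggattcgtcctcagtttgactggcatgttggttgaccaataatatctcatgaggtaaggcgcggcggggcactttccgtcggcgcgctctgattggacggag
A match shows only that these letters are present. CARS, GARS and TARS have 2 annotated starts each, and 1 of them carried the match. Windows were missing for DARS, LARS, VARS, YARS, AARS2 and VARS2.

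WARS had a match of another kind, to the interferon-stimulated response element, searched as GAAA, any 2 bases, then GAAA (4.38% of all genes). It lay 55 bases before the second of the 2 annotated WARS starts.
WARS, chr14:100375383-100375412 (-): tttcagaaggGAAACTGAAAgaaagagggg
EARS2 was the other synthetase with such a match. The gamma-activated site TTCCNGGAA (1.44% of genes) was found for TARS and WARS2, the forkhead core TGTTTAC (4.19%) for CARS alone among the members searched, and the E-box CACGTG (8.77%) for IARS, CARS2, EARS2 and MARS2. MARS2 also held the palindromic NRF1 site (1.52%).

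The comparison of induced with uninduced cells asked whether the cytosolic and mitochondrial enzymes changed when FOXA2 was switched on. None of the 36 genes had separate intervals (0 higher, 0 lower). Of the 14319 rows that reached 1 FPKM in either condition, which are called kept rows here, 1.18% had separate intervals, 0.726% higher and 0.454% lower. Asking only that the difference exceed its combined half-width, a looser criterion, also gave 0 genes, against 2.37% of kept rows. The largest difference belonged to WARS, and the other 35 genes lay within 2-fold on the log2(FPKM + 1) scale. At least 2-fold higher values were seen for 9.2% of kept rows and at least 2-fold lower ones for 6.03%. The median log2 difference, induced minus uninduced, was 0.050 for cytosolic and 0.036 for mitochondrial synthetases, beside 0.054 for all kept rows. These differences were above 0 for 11 of 20 cytosolic and 8 of 16 mitochondrial genes, and for 53.7% of kept rows. After quantile normalization the class medians were 0.25 (cytosolic) and -0.089 (mitochondrial).

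**Figure D1:**
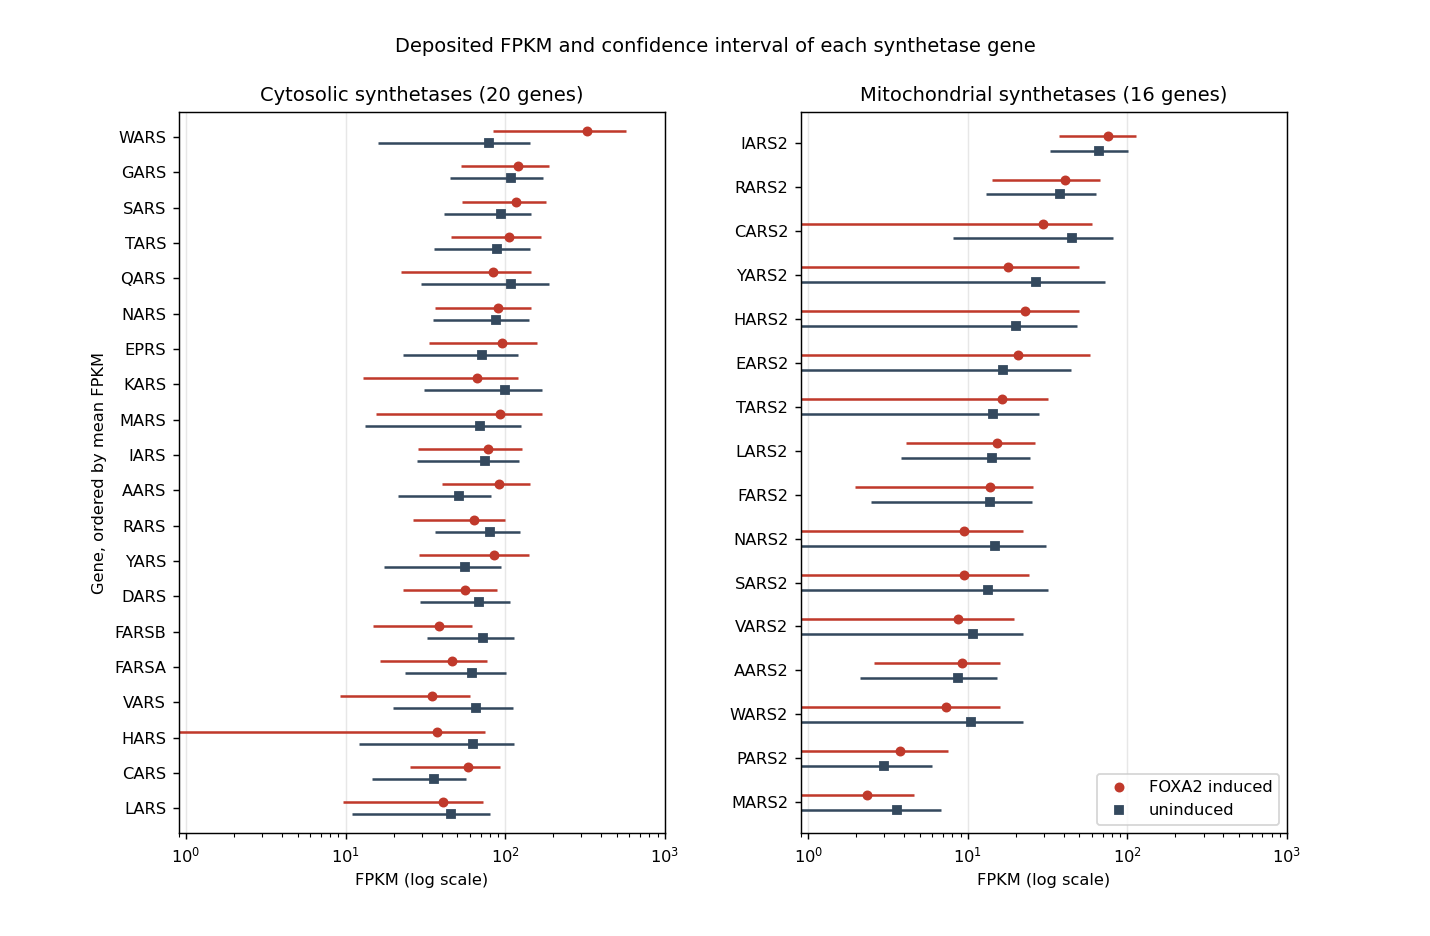
FPKM on a log scale for each of the 20 cytosolic and 16 mitochondrial synthetase genes in FOXA2-induced (red circles) and uninduced cells (dark squares). Lines are the deposited confidence intervals, and a lower bound under the axis limit runs to the left edge; the intervals of the 2 conditions overlap for all 36 genes, and WARS has the widest gap between its values.

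WARS, which charges tRNA with tryptophan (ENSG00000140105, chromosome 14, 100800124 to 100996640 in hg19), was at 327 FPKM (interval 84.0 to 571) induced and 79.0 FPKM (16.0 to 142) uninduced. The induced value was 4.14 times the uninduced one, a log2 difference of 2.04 that ranged from 1.95 to 2.38 over the alternatives run. The upper uninduced bound lay above the lower induced bound, so WARS was not called. By the looser criterion it also missed, with a difference of 248 FPKM against a combined half-width of 252 FPKM. WARS was the synthetase with the highest level after induction, where it made up 18.9% of the summed cytosolic FPKM, against 5.32% without induction. Its span in the table also covers WDR25, which is annotated on the opposite strand, and the libraries do not keep strand. IRF1, an interferon-regulated factor, was at 44.2 FPKM induced and 20.1 FPKM uninduced, with overlapping intervals, and its part in the WARS value was not tested. IDO1, an interferon-responsive enzyme that breaks down tryptophan, was listed at 0 in both conditions.

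Apart from WARS, the differences of the cytosolic genes ran from -0.91 to 0.82, each gene with overlapping intervals. Of these 19 genes 10 were above 0 (52.6%), close to the 53.7% of kept rows. The summed FPKM of the other 19 genes was close in the 2 conditions, 1403 induced and 1406 uninduced, whereas all 20 together summed to 1731 and 1485. The induced to uninduced ratios of these sums were 0.998 and 1.17, beside 0.871 for the sum over all kept rows. Equal sums are therefore not equal shares of the columns. Levels spanned a narrow range, from 34.6 to 120.1 FPKM induced without WARS, and from 35.8 to 109 FPKM uninduced with it.

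AARS, the alanine enzyme (ENSG00000090861, chromosome 16, 70286197 to 70323446 in hg19), was at 91.9 FPKM (interval 39.9 to 144) induced and 51.5 FPKM (21.4 to 81.6) uninduced, a log2 difference of 0.82. CARS, for cysteine, was at 58.8 FPKM induced and 35.8 FPKM uninduced, a log2 difference of 0.70. YARS, for tyrosine, was at 85.3 and 55.9 FPKM in the same order, a log2 difference of 0.60. These 3 were the highest after WARS, and AARS passed 2-fold (1.02) when the columns were scaled to the same FPKM sum. MARS, for methionine, was at 92.5 FPKM induced and 69.4 FPKM uninduced, and EPRS, a fused enzyme for glutamate and proline, at 95.8 and 71.9 FPKM, with log2 differences of 0.41 each. MARS shares its span with GLI1 and with DDIT3, the stress factor CHOP. DDIT3 was at 100.03 FPKM (interval 0 to 205) induced and 10.8 FPKM (0 to 36.3) uninduced, with overlap. Without strand the reads of overlapping genes cannot be told apart, and the part of DDIT3 reads in the MARS value was not tested. SARS, for serine, was at 116 FPKM induced and 93.4 FPKM uninduced, and TARS, for threonine, at 106 and 89.3 FPKM, with log2 differences of 0.31 and 0.25. GARS, the glycine enzyme of both compartments, was at 120.1 FPKM induced and 109 FPKM uninduced, a log2 difference of 0.14. IARS, for isoleucine, was at 77.8 FPKM induced and 74.8 FPKM uninduced, and NARS, for asparagine, at 90.7 and 88.0 FPKM. The last 2 differences, 0.06 and 0.04, went below 0 when the columns were scaled to the same median.

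Among the genes with lower values, FARSB and FARSA encode the beta and alpha subunits of phenylalanyl-tRNA synthetase. FARSB (ENSG00000116120, chromosome 2, 223435254 to 223521056 in hg19) was at 38.5 FPKM (interval 14.8 to 62.2) induced and 73.0 FPKM (32.2 to 114) uninduced, a log2 difference of -0.91. FARSA was at 46.4 FPKM induced and 62.3 FPKM uninduced, a difference of -0.42. VARS, for valine (ENSG00000204394, chromosome 6, 31745294 to 31763730 in hg19), was at 34.6 FPKM (9.16 to 60.1) induced and 65.5 FPKM (19.8 to 111) uninduced, a difference of -0.90. HARS, for histidine, was at 37.2 FPKM induced and 62.6 FPKM uninduced, a difference of -0.74. Its induced lower bound was 0, and it shares its span with its mitochondrial neighbour HARS2 and 3 other kept genes. KARS, the lysine enzyme of both compartments, was at 66.9 FPKM induced and 100.3 FPKM uninduced, a difference of -0.58. GARS and KARS, the enzymes with dual use, thus had differences of opposite sign. QARS, for glutamine, was at 83.8 FPKM induced and 109 FPKM uninduced, and RARS, for arginine, at 63.3 and 79.9 FPKM, with differences of -0.38 and -0.33. DARS, for aspartate, was at 56.1 FPKM induced and 68.5 FPKM uninduced, and LARS, for leucine, at 40.9 and 45.6 FPKM, with differences of -0.28 and -0.15. LARS went above 0 when the columns were scaled to the same FPKM sum, while the other 8 stayed below 0 in all 8 alternatives run on single genes. Of these alternatives, only quantile normalization and the other scalings could change a sign.

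The values were then set against the element shown for AARS and its relatives. All 7 cytosolic genes with a CARE match had differences above 0, with a median of 0.25 and a range of 0.04 to 0.82. Of the 9 with a window and no match, 6 were below 0, with a median of -0.38; the 3 above 0 were WARS, EPRS and SARS. The 4 genes without a window, DARS, LARS, VARS and YARS, had a median of -0.22. With the columns scaled to the same median, 5 of the 7 genes with a match were above 0, and the medians were 0.16 with and -0.46 without a match. YARS2, the mitochondrial gene with a match, had a difference of -0.56. ATF4 itself was at 247 FPKM (interval 121 to 373) induced and 171 FPKM (81.9 to 260.1) uninduced, with overlap. ASNS, or asparagine synthetase, a textbook ATF4 target, had separate intervals, at 71.9 FPKM (31.0 to 113) induced and 13.3 FPKM (2.43 to 24.1) uninduced. The letters were chosen with earlier results of these data known. Counting a match in any window, which bears on CARS, GARS and TARS, was decided after single windows had been seen. The split is therefore a description only. Whether ATF4 acted on the synthetases was not tested.

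**Figure D2:**
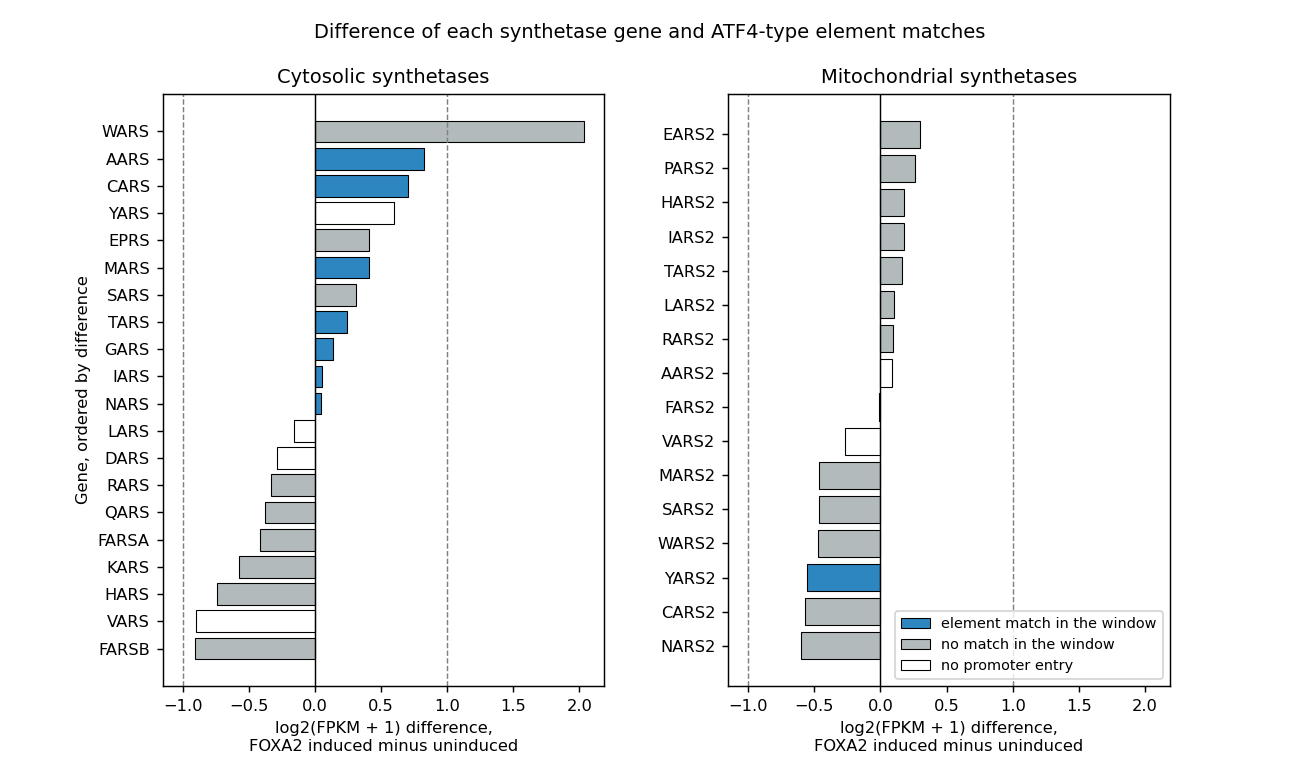
Difference of each gene between FOXA2-induced and uninduced cells on the log2(FPKM + 1) scale, ordered within each class, with dashed lines at 2-fold. Blue bars mark genes with a CARE letter match in a promoter window, grey bars genes without it and white bars genes with no window. The 7 cytosolic genes with a match all lie above 0, and WARS alone passes 2-fold. With the columns scaled to the same median 5 of the 7 were above 0. AARS also passed 2-fold when the columns had the same FPKM sum.

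By assembly, the 8 enzymes of the multisynthetase complex had a median difference of -0.22, with 3 above 0 (EPRS, MARS and IARS) and 5 below. The 12 cytosolic enzymes outside it had a median of 0.19, with 8 above 0. Genes of the complex covered a smaller range, -0.58 to 0.41, than the larger set outside it, -0.91 to 2.04. Without WARS the set outside it reached 0.82. The complex scaffolds AIMP1 (51.2 FPKM induced, 53.3 FPKM uninduced), AIMP2 (13.9 and 22.4 FPKM) and EEF1E1 (30.3 and 47.9 FPKM) all had lower values. The difference of AIMP1 was only -0.06 and went above 0 when the columns were scaled to the same FPKM sum. The lower bounds of AIMP2 and EEF1E1 were 0 in both conditions. By catalytic fold, the cytosolic medians were 0.06 for 9 class I enzymes and -0.12 for 10 class II enzymes, and the mitochondrial medians were -0.27 for 9 class I and 0.09 for 7 class II enzymes; EPRS joins both folds.

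Mitochondrial synthetases were expressed at lower levels than the cytosolic set. Their levels ranged from 2.33 to 75.6 FPKM induced and 2.98 to 66.8 FPKM uninduced, and their differences from -0.60 to 0.30, with 0 genes past 2-fold. The sum over the class was 303 FPKM induced and 320.1 FPKM uninduced, a ratio of 0.946, beside 0.871 for all kept rows. For 7 of the 16 the deposited lower bound was 0 in both columns, which was the case for 0 of the 20 cytosolic genes.

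IARS2, for isoleucine (ENSG00000067704, chromosome 1, 220267443 to 220321380 in hg19), was the highest at 75.6 FPKM (interval 37.4 to 114) induced and 66.8 FPKM (32.9 to 101) uninduced. RARS2, for arginine, was at 40.8 FPKM induced and 38.1 FPKM uninduced, and LARS2, for leucine, at 15.3 and 14.2 FPKM. Both differences were 0.10. TARS2, for threonine, was at 16.3 FPKM induced and 14.5 FPKM uninduced, and HARS2, for histidine, at 22.8 and 20.01 FPKM. EARS2, which charges both the glutamate and the glutamine tRNA of mitochondria, was at 20.6 FPKM induced and 16.5 FPKM uninduced, a difference of 0.30. PARS2, for proline, was at 3.77 FPKM induced and 2.98 FPKM uninduced, a difference of 0.26, and AARS2, for alanine, at 9.21 and 8.62 FPKM. FARS2, which works as a single chain unlike its cytosolic counterpart, was at 13.7 FPKM induced and 13.9 FPKM uninduced. AARS2 went below 0 after quantile normalization and FARS2 above 0 once both columns had the same FPKM sum.

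The 7 other mitochondrial genes had lower values in every alternative that kept them, including the scalings, the only ones that could change a sign. NARS2, for asparagine, was at 9.43 FPKM induced and 14.8 FPKM uninduced, a difference of -0.60. CARS2, for cysteine, was at 29.8 FPKM induced and 44.7 FPKM uninduced, and YARS2, for tyrosine, at 18.0 and 26.9 FPKM, with differences of -0.57 and -0.56. WARS2, for tryptophan, was at 7.28 FPKM induced and 10.5 FPKM uninduced, so it did not share the direction of WARS. SARS2, for serine, was at 9.42 FPKM induced and 13.4 FPKM uninduced. MARS2, for methionine, was at 2.33 FPKM induced and 3.60 FPKM uninduced, and VARS2, for valine, at 8.72 and 10.7 FPKM.

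Enzymes for the same amino acid were then set side by side in 17 pairs covering 16 amino acids. The cytosolic gene was the higher of the pair in both conditions in 16 of 17 pairs. Over all 17 pairs the median ratio was 4.66 induced and 5.27 uninduced. The exception was cysteine, where CARS was at 1.98 times the level of CARS2 induced and 0.80 times uninduced. IARS and IARS2 were nearly level, with ratios of 1.03 induced and 1.12 uninduced, and WARS to WARS2 had the highest ratio induced, 45.0, against 7.55 uninduced. The widest departures in the other direction were HARS to HARS2, at 1.63 induced and 3.13 uninduced, and FARSB to FARS2, at 2.80 induced and 5.27 uninduced. In 9 of 17 pairs the partners had log2 differences of opposite sign. The pairs do not count as replicates, since EPRS and FARS2 each enter 2 of them.

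**Figure D3:**
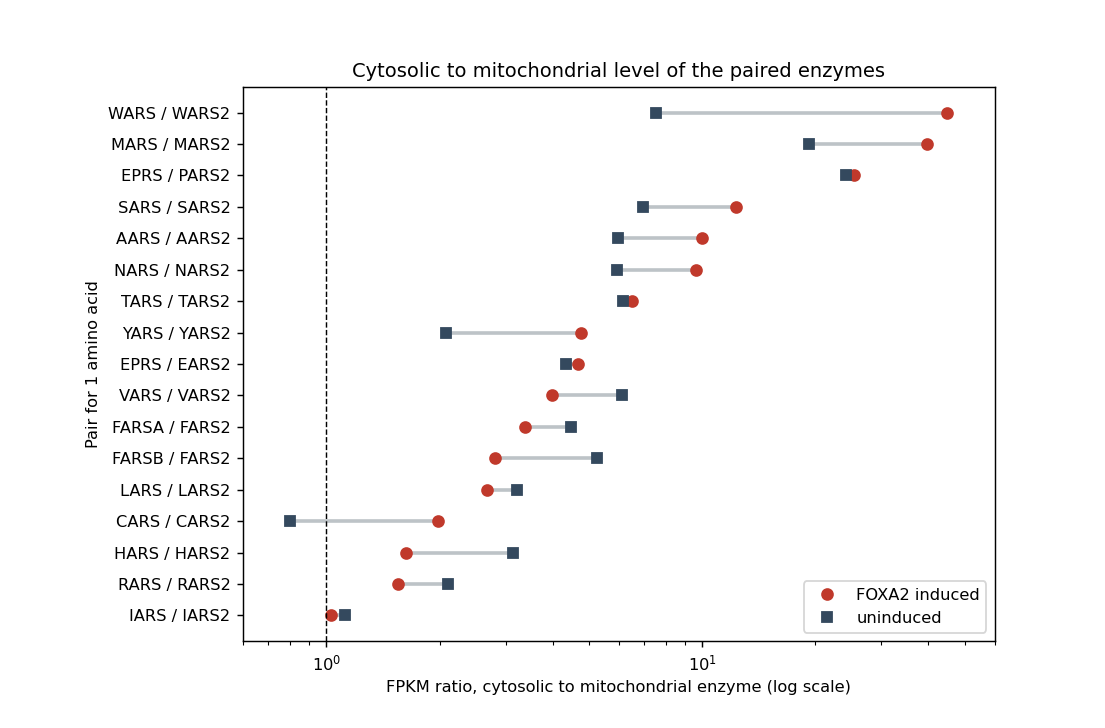
Ratio of the FPKM of the cytosolic enzyme to that of the mitochondrial enzyme for the same amino acid, on a log scale, in FOXA2-induced (red circles) and uninduced cells (dark squares). Tryptophan lies highest among induced ratios at 45.0, and cysteine (CARS / CARS2) crosses the dashed line of equal levels.

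Other genes of tRNA charging and translation mostly had lower values in induced cells. Of 82 kept genes in 10 lists, 65 were below 0, beside 17 of the 36 synthetases and 6626 of the 14319 kept rows. Their median was -0.30, and 0 had separate intervals, beside 1.18% of kept rows. All 12 genes of the initiation list, which includes the eIF4E-binding repressor EIF4EBP1, were below 0 (median -0.36), with EIF4A1, the cap-dependent RNA helicase, at 272 FPKM induced and 572 FPKM uninduced. EIF2S1, the eIF2 alpha subunit, was at 90.6 FPKM (interval 0 to 200) induced and 169 FPKM (0 to 359) uninduced. All 6 kept elongation genes were below 0 (median -0.84), among them EEF1B2, the exchange factor that recharges eEF1A, at 153 FPKM induced and 352 FPKM uninduced, and EIF5A at 155 and 350.0 FPKM. In mitochondria all 10 translation factors were below 0 (median -0.35), with GFM1 at 20.03 FPKM induced and 34.9 FPKM uninduced and TSFM at 18.7 and 31.1 FPKM. The lower bounds of TSFM were 0 in both conditions, and that of GFM1 was 0 induced. The medians of these 3 lists were below 0 in every alternative run. With the columns scaled to the same FPKM sum they were -0.17, -0.64 and -0.16, in the order given. LARS, at -0.15, went above 0 under that scaling, and so did every gene of the initiation and mitochondrial lists that was below 0 by less than LARS. That all 12 and all 10 genes of these lists were below 0 thus does not hold under it. The gene counts are for the columns as deposited.

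Genes that edit or recycle charged tRNA were also below 0, all 6 of them (median -0.58), with DTD1, a deacylase for D-aminoacyl-tRNA, at 32.9 FPKM induced and 58.5 FPKM uninduced and PTRHD1 at 12.1 and 21.6 FPKM. The lower bounds of PTRHD1 were 0 in both conditions. In tRNA end processing and export 12 of 13 kept genes were below 0 (median -0.29). Those below 0 by less than LARS went above 0 when the columns were scaled to the same FPKM sum. POP1, a subunit of RNase P, was at 4.05 FPKM induced and 11.7 FPKM uninduced, and POP5 at 23.9 and 42.6 FPKM. The gene above 0 was XPOT, the tRNA exportin, at 67.0 FPKM induced and 49.3 FPKM uninduced. RNA polymerase III, which transcribes tRNA genes, was mixed, with 7 of 17 above 0. Its subunit POLR3G was at 4.14 FPKM (interval 0 to 13.2) induced and 13.7 FPKM (0 to 31.1) uninduced, and the initiation factor BDP1 at 11.7 and 6.18 FPKM.

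The list for sensing of uncharged tRNA and its factors had a median of 0.28, with 4 of 6 above 0 (ATF4, PPP1R15A, PPP1R15B and IMPACT). EIF2AK4 and GCN1L1 were below 0, at -0.37 and -0.26. PPP1R15A (GADD34), which reverses eIF2 alpha phosphorylation, was at 92.4 FPKM induced and 43.3 FPKM uninduced, and EIF2AK4 (GCN2), the kinase that binds uncharged tRNA, at 34.7 and 45.2 FPKM. Selenocysteine synthesis genes were mixed at a median of 0.16, with SEPHS1 at 26.7 FPKM induced and 48.9 FPKM uninduced and PSTK at 4.52 and 3.11 FPKM. The 4 kept genes of mitochondrial tRNA amidation and formylation had a median of -0.05, with QRSL1, an amidotransferase subunit, at 11.1 FPKM induced and 7.59 FPKM uninduced and GATC at 10.7 and 13.6 FPKM. For PSTK and GATC the lower bounds were 0 in both conditions. The medians of the polymerase III, selenocysteine and amidation lists changed sign between alternatives. In bulk RNA, fewer cells with a transcript and less of it per cell cannot be told apart.

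**Figure D4:**
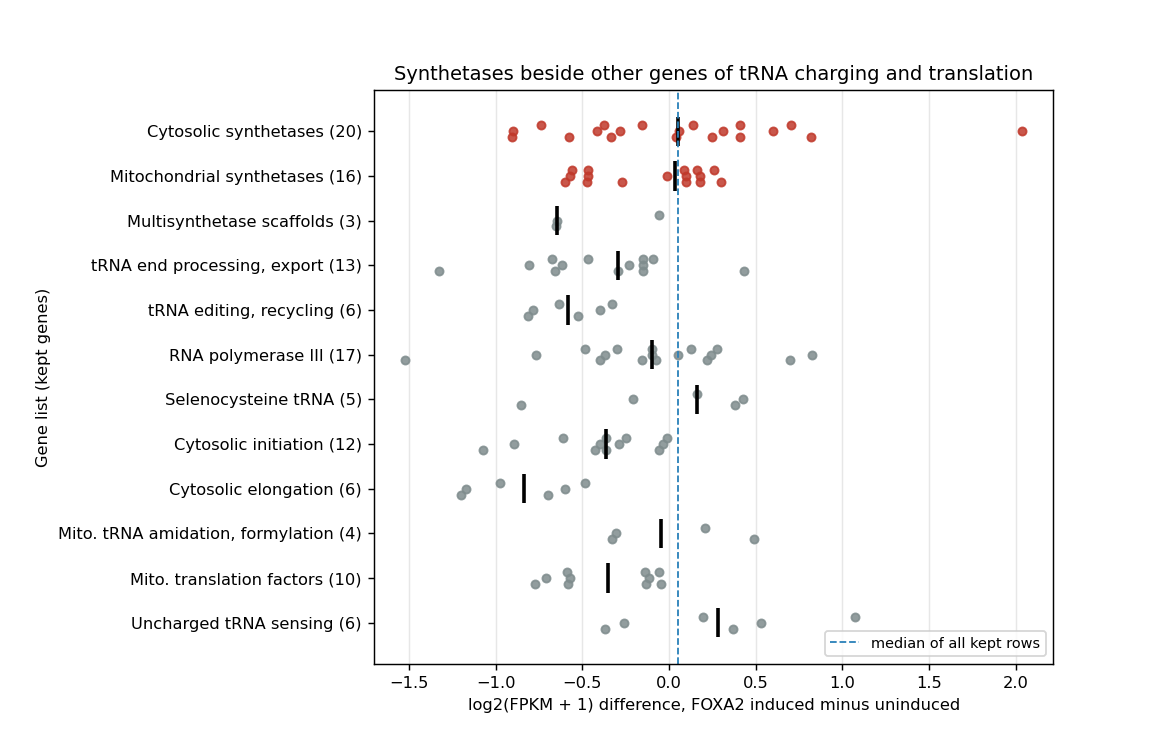
Differences on the log2(FPKM + 1) scale for the synthetases (red) and for kept genes of 10 other lists of tRNA charging and translation (grey), with black bars at each median and a dashed line at the median of all kept rows, 0.054. The synthetase medians lie near that line, and the medians of 8 of the 10 other lists lie below it, the exceptions being selenocysteine tRNA and uncharged tRNA sensing.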

How the data were processed

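TruSeq libraries without strand information were made, per the labels' protocols. TopHat and hg19 are named by the submitters' processing notes, and no source used here names the quantifier or its filters. The authors deposited 1 FPKM value per gene and condition with interval bounds. Whether a column combines both samples is not stated. Columns were matched by name, and 3 further value columns that match no sample were left out. Low values had a most frequent induced to uninduced ratio of 0.86 (119 of 2973 genes), and FPKM sums were 482743 induced and 553536 uninduced.

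Differences are on the log2(FPKM + 1) scale, and rows were kept at 1 FPKM or more in either condition (Python 3.11.15, pandas 2.3.3). Members, lists, element letters and tests were chosen with earlier results of these data known. All members were named, and from each list the genes called or otherwise the 2 with the largest differences. DDIT3, ASNS, IRF1, IDO1, AIMP1, XPOT, EIF4EBP1, EIF2AK4, GCN1L1, IMPACT and PPP1R15B were named outside that rule. Windows were matched through Ensembl identifiers for 30 of 36 genes, 9 with several windows. A match in any window of a gene was counted, a choice made after the matches of single windows had been seen. Alternatives were other pseudocounts, filters, scalings and the looser criterion.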

Additional observations from a re-analysis of the deposited data

How the results depend on the processing

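The 0 calls among the 36 genes and the 82 other genes held in all alternatives run. With the columns scaled to the same FPKM sum, the medians were 0.24 (cytosolic), 0.22 (mitochondrial), -0.12 (other genes) and 0.23 (all kept rows, a shift from 0.054), and 2 genes, WARS and AARS, passed 2-fold. After quantile normalization the medians were 0.25 for cytosolic and -0.089 for mitochondrial genes, so the class difference was 0.34 in place of 0.014; the cause was not tested. With the columns scaled to the same median, the class medians were -0.034 and -0.041. Of the 36 genes, 31 kept their sign in every alternative that kept them, while IARS, NARS, LARS, FARS2 and AARS2 did not. Other pseudocounts, filters and the looser criterion cannot change a sign, so only the scalings, quantile normalization included, bear on that count. Leaving out GARS and KARS left the class difference at 0.014. These genes lie on opposite sides of the cytosolic median, so leaving out both could not move it. No paired analysis was possible because each group has 1 column, which the table ties to no replicate number, so the replicate block and leaving out replicates were not run. Intervals reached a median of 73.5% above the induced and 73.1% above the uninduced value of the members, which limits what could be called, and 16 members share their span with another kept gene.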
